A study of Mus musculus with 16 samples.

Results

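Peritoneal macrophages kept in low glucose were compared with and without oxidised low-density lipoprotein (ox-LDL), using the 4 L_O libraries against the 4 L_C libraries. These 8 of the 16 libraries in the series were chosen by their labels, and all 15871 entries of the count table were followed, of which 13527 had enough reads to be tested. The cells came from 8-week-old wild-type C57BL/6 mice given 6% starch by intraperitoneal injection, which draws macrophages into the cavity, and were grown in DMEM with 10% serum and antibiotics. The design calls the L groups low glucose and gives no concentration for them. L_O cells received ox-LDL for 48 h, at a dose that the labels write as 50 mg/ml, a unit that is in doubt. L_C cells received 27.5 mM mannitol for 48 h, a sugar alcohol used to match the osmolarity of added glucose, and the L_O label does not name mannitol. The design text names mannitol as the osmotic control without saying which groups held it, so effects of ox-LDL and of a possible difference in mannitol cannot be told apart within this pair. The remaining 8 libraries, with 33 mmol/L glucose and with (H_O) or without (H_C) ox-LDL, serve below for comparison and also enter the fit, where all 16 libraries share 1 estimate of the spread. Neither of their labels names mannitol. The labels do not say that replicates came from separate mice or cultures, so the p-values rest only on the spread among these libraries, which may be technical.

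Macrophages take up ox-LDL through scavenger receptors, which are not shut down as sterol accumulates, and the lipid-filled foam cells that result are typical of atherosclerotic plaques. The particle brings in fatty acids that activate PPAR receptors, sterols that restrain SREBP2 and can activate LXR, and oxidised lipids that react with the sensor of NRF2, a factor for antioxidant genes. Interferon pathways and the MHC genes that they drive form a separate arm of macrophage biology, which sets how readily these cells fight pathogens and present antigen.

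Total counts lay between 32596640 and 41712885 in the 8 libraries. At this depth counting error is small for the well-expressed genes named with values below. It is not small for genes with few reads, such as Acot1, Clec9a, Cd79a and Il1b. Levels are CPM, read counts set relative to the library's total with TMM scaling factors, and are not divided by gene length, so they are compared only within a gene. L_C_4 stood apart from its group. Mitochondrial transcripts took 1.94% to 2.07% of counts in L_O, and 3.71% in L_C_4 against 1.48% to 1.95% in the other L_C libraries. Ribosomal protein genes took 1.54% to 1.64% in L_O, and 1.33% in L_C_4 against 1.70% to 1.75% in the other L_C libraries. The second principal component of the 8 libraries, with 15.4% of the variance, placed L_C_4 at 49.5 and the other L_C libraries between -25.3 and -15.2. The first component, with 32.5%, separated L_O (29.5 to 33.1) from L_C (-41.6 to -25.0). Results were therefore computed with and without L_C_4. Each gene named below as higher or lower with all 8 libraries was also called in the same direction without L_C_4, except Marco, Cd3e and Dcn. Values without it are given for some of the counts and fold changes that moved, not for all.

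Macrophage markers were high in every library. Lyz2, lysozyme, had 14861, 14386, 14376 and 14282 CPM in L_O, against 14233, 14181, 13258 and 14716 CPM in L_C. Adgre1, the F4/80 antigen, had 553, 518, 516 and 523 CPM in L_O, against 499, 530.4, 523 and 399 CPM in L_C. Neither marker passed the test (Lyz2, log2 fold change 0.038 ± 0.035 SE, adjusted p = 0.468, and Adgre1, 0.11 ± 0.068, adjusted p = 0.245). Of the 8 macrophage markers, 1 was higher in L_O (Itgam, an integrin that overlaps a second entry over 68.7% of its exon bases) and 3 were lower (Cd14, Csf1r and Fcgr1).

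Markers of other peritoneal cells were low, and none of their lists moved upward. The 5 tested B cell markers summed to 80.0 to 85.6 CPM in L_O and 113 to 161 CPM in L_C, nearly all of it Cd22, which was also counted among the siglecs, and Pax5 was at 0 in all 4 L_O libraries. The 10 T and NK cell markers summed to 4.84 to 7.71 CPM in L_O and 8.67 to 13.8 CPM in L_C, and the 6 dendritic cell markers to 1.74 to 3.88 CPM in L_O and 4.30 to 7.63 CPM in L_C. The 11 mesothelial and fibroblast markers summed to 27.0 to 41.5 CPM in L_O and 64.4 to 90.4 CPM in L_C. The 2 tested neutrophil markers, S100a8 and Cxcr2, summed to 3.48 to 5.63 CPM in L_O and 5.14 to 5.92 CPM in L_C, and Siglecf, the 1 tested eosinophil marker, stood at 3.69 to 4.98 CPM in L_O and 14.2 to 20.6 CPM in L_C. Members that passed the test, all lower in L_O, were Cxcr2 and Siglecf, Pax5 and Cd22, the T and NK cell genes Cd3e, Lck and Nkg7, the dendritic cell gene Clec9a, and Dcn of the fibroblast list. The calls of Cd3e and Dcn were lost without L_C_4 (adjusted p = 0.111 and 0.120). The 5 tested red cell and platelet markers summed to 13.5 to 18.8 CPM in L_O and 15.1 to 18.9 CPM in L_C with none called, and no mast cell marker had enough reads to be tested. In bulk RNA, fewer cells of a type and less RNA per cell cannot be told apart. The part of these cells in the results below was not tested.

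ox-LDL was accompanied by a broad change of the transcriptome. Of the tested entries, 1623 were higher (12%) and 1867 lower (13.8%) in L_O at an adjusted p under 0.05, from edgeR's quasi-likelihood test with Benjamini-Hochberg adjustment, which is the test behind every adjusted p below. The shares of 12% and 13.8% over all tested entries are the background for every list count of L_O against L_C in this report. At least a 2-fold change was seen in 137 of the higher and 375 of the lower entries. Without L_C_4 the counts were 1891 (13.8%) and 1990 (14.5%) of 13734 tested. Called with and without L_C_4 in the same direction were 3137 entries, 353 were called only with it, 737 only without it, and none changed sign between the 2 calls. When libraries were scaled by their totals alone, the split became 2857 higher and 1392 lower, and the median log2 fold change of all entries moved to 0.086, against 0.000925 with TMM. The L_O and L_C libraries did not overlap for 26.1% of tested entries, and 2974 of the called entries were among them.

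**Figure D1:**
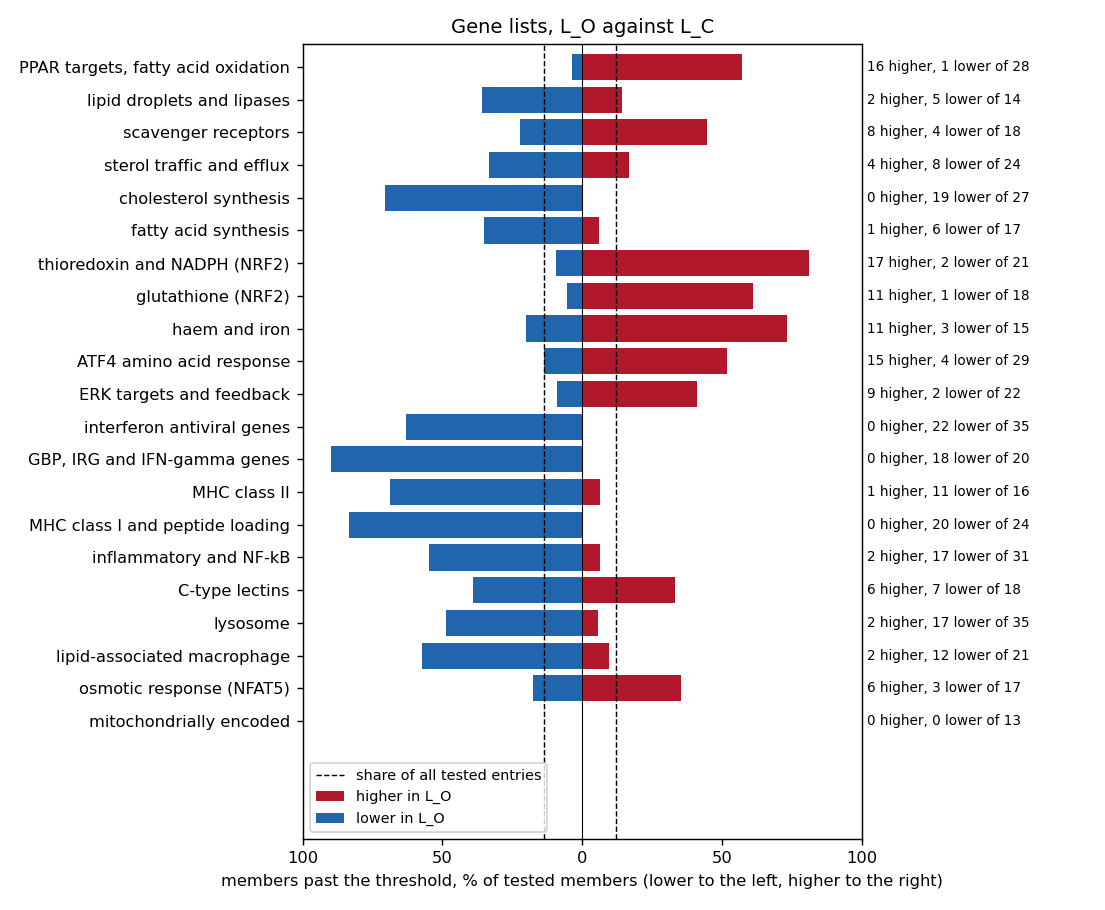
Share of the tested members of 21 gene lists that were higher (red, to the right) or lower (blue, to the left) in L_O than in L_C, in percent, with the numbers beside each bar. The dashed lines mark the shares over all tested entries, 12% higher and 13.8% lower. Cholesterol synthesis, interferon and MHC class I lists hold lower members and no higher one, while the antioxidant lists lie mostly to the right. For sterol traffic the larger side turns round with no scaling beyond library totals, to 7 higher and 6 lower, and for C-type lectins to 8 higher and 7 lower.

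The 12 largest rises among well-expressed genes whose libraries did not overlap were led by Angptl4, a secreted inhibitor of lipoprotein lipase and a classical PPAR target on chromosome 17 (33774900 to 33781575, GRCm38). Angptl4 had 25.4, 30.5, 22.6 and 24.1 CPM in L_O, against 1.07, 2.52, 1.72 and 2.08 CPM in L_C. The lowest L_O library was far above the highest L_C library (log2 fold change 3.78 ± 0.21 SE, adjusted p = 4e-10). Clec4n, which encodes the C-type lectin Dectin-2 that recognises fungal mannans, had 53.5, 51.9, 51.1 and 52.2 CPM in L_O, against 8.24, 9.34, 7.49 and 9.60 CPM in L_C. Hal, histidine ammonia-lyase, had 64.8, 58.1, 60 and 65.9 CPM in L_O, against 12.3, 10.3, 10.7 and 9.78 CPM in L_C. Both genes were several-fold higher in each L_O library than in any L_C library (Clec4n, log2 fold change 2.59 ± 0.083 SE, adjusted p = 3.51e-13, and Hal, 2.53 ± 0.092, adjusted p = 1.4e-12). The others of the 12 were Dusp6, Gas6, Ednrb (an endothelin receptor), Gclm, Tgfbi (a secreted matrix protein), Stab1, Slc40a1, Plk3 and Slc7a11, several of which return below.

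The 12 largest falls, chosen by the same rule that the groups do not overlap, were led by H2-M2, a non-classical class I gene. H2-M2 had 2.63, 3.07, 1.62 and 1.63 CPM in L_O, against 16.4, 19.6, 15.4 and 34.8 CPM in L_C. Acod1, which makes itaconate in activated macrophages, had 32.9, 26.8, 17.4 and 16.1 CPM in L_O, against 170.3, 228, 161 and 252 CPM in L_C. All 4 L_O values of each gene were well under all 4 L_C values (H2-M2, log2 fold change -3.27 ± 0.32 SE, adjusted p = 4.03e-07, and Acod1, -3.12 ± 0.38, adjusted p = 4.81e-06). Clic5, a chloride intracellular channel protein, had 11, 9.25, 8.40 and 8.68 CPM in L_O, against 46.5, 68, 45 and 45.2 CPM in L_C (log2 fold change -2.45 ± 0.14 SE, adjusted p = 4.74e-10). Mamdc2, which encodes a secreted proteoglycan, had 42.2, 55.7, 44.9 and 44.2 CPM in L_O, against 267, 221, 239.7 and 234 CPM in L_C (log2 fold change -2.36 ± 0.12 SE, adjusted p = 9.52e-11). Neither gene's groups overlapped, as the choice of genes required. The rest of the 12 were Ifit2, Gbp2, Gbp4, Tgtp1, Tgtp2, Htra1, H2-Eb1 and H2-Aa. Tgtp1 and Tgtp2 share over 80% of their 50-base stretches with other genes, chiefly each other, so how their reads were divided is uncertain.

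**Figure D2:**
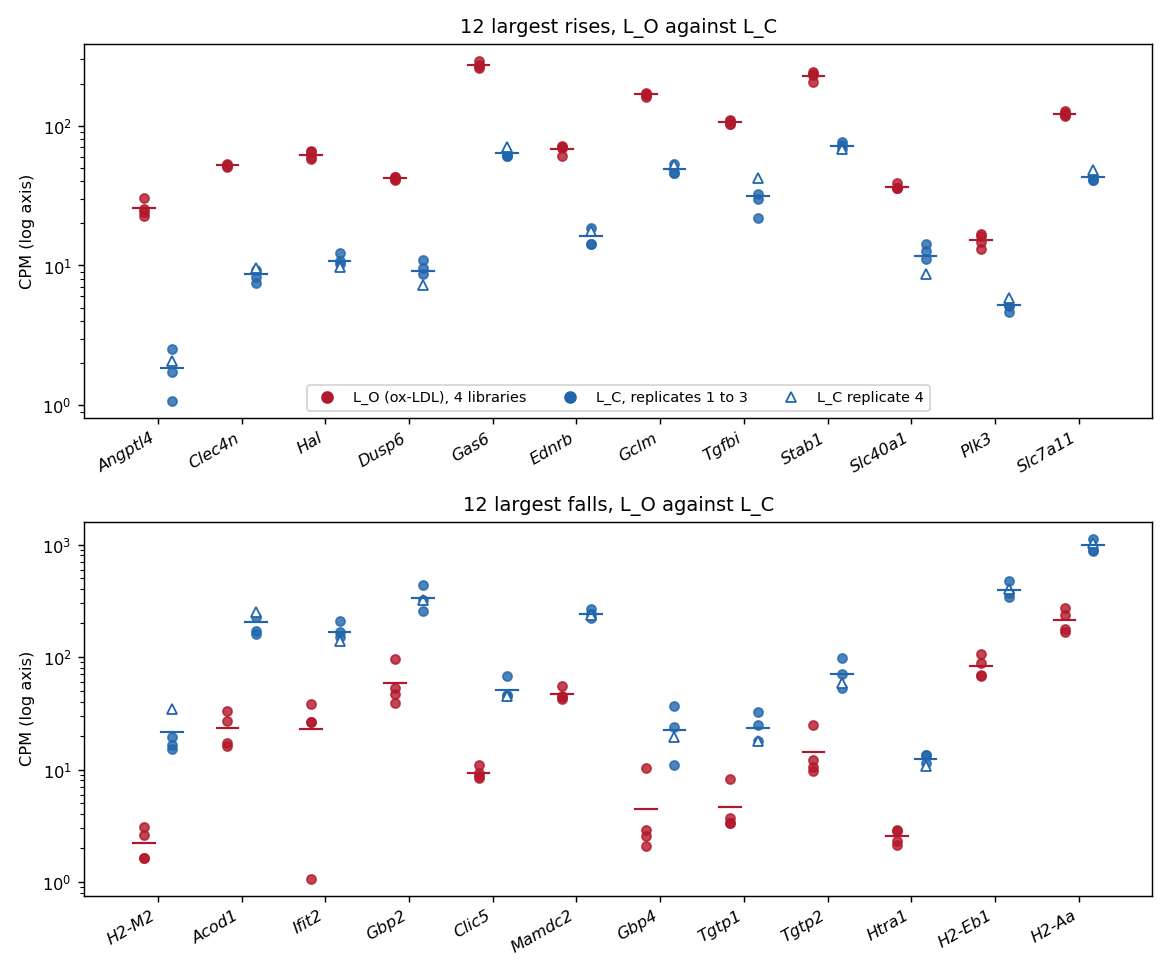
Level in CPM (log axis) of the 12 genes with the largest rises (upper panel) and the 12 with the largest falls (lower panel), chosen for this difference. Red points are the 4 L_O libraries, blue points L_C replicates 1 to 3, open triangles L_C_4, and short lines the group means. In each of the 24 genes the red points lie apart from the blue ones, as their choice required, and L_O_2 stands far below the other L_O libraries for Ifit2.

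Lipid uptake receptors moved in both directions. Of 18 tested scavenger receptor genes, 8 were higher and 4 lower in L_O, and their median log2 fold change of 0.017 moved to between -0.15 (without L_O_4) and 0.48 (without L_O_3) when 1 library was left out. Cd36, the fatty acid and ox-LDL receptor on chromosome 5 (17781690 to 17888959), had 4524, 4636, 4683 and 4662 CPM in L_O, against 1740, 1774, 1985 and 1611 CPM in L_C. Every L_O library was above every L_C library (log2 fold change 1.38 ± 0.058 SE, adjusted p = 9.7e-12). Stab1, stabilin 1, had 229.7, 205, 242 and 236 CPM in L_O, against 68.5, 76.2, 72.7 and 68.3 CPM in L_C. Mrc1, the mannose receptor, had 703, 666, 717 and 725 CPM in L_O, against 320.1, 308, 325 and 334 CPM in L_C. Msr1, scavenger receptor A, had 522, 481, 488 and 477 CPM in L_O, against 314, 351, 361 and 389.7 CPM in L_C. None of the 3 overlapped between groups, with log2 fold changes of 1.68 ± 0.057 for Stab1 (adjusted p = 7.53e-13), 1.13 ± 0.047 for Mrc1 (adjusted p = 9.7e-12) and 0.47 ± 0.059 for Msr1 (adjusted p = 6.45e-06). Among the lower members were Cxcl16, Scarb1 and Marco, of which Marco did not pass without L_C_4 (log2 fold change -0.33, adjusted p = 0.0511, against -0.49 with it). Cxcl16, a membrane-bound chemokine that binds ox-LDL, had 55.7, 57, 51.8 and 46 CPM in L_O, against 107, 117, 102 and 122 CPM in L_C, with no overlap (log2 fold change -1.09 ± 0.12 SE, adjusted p = 2.2e-06). Scarb1 fell by 0.19 on the log2 scale, a call that was lost with no scaling and with the 8 libraries fitted alone. Olr1, the lectin-like ox-LDL receptor LOX-1, had 1.90, 1.68, 1.77 and 1.42 CPM in L_O, against 1.22, 1.99, 3.67 and 3.17 CPM in L_C, and did not pass the test (log2 fold change -0.57 ± 0.32 SE, adjusted p = 0.218).

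Genes of fatty acid oxidation and PPAR targets were mostly higher. Of 28 tested members 16 were higher and 1 lower (18 and 2 without L_C_4), and the median log2 fold change was 0.26. Cpt1a, which admits long-chain fatty acids into mitochondria, had 293, 289.5, 287 and 298 CPM in L_O, against 113, 114, 112 and 127 CPM in L_C. The L_O libraries lay above the L_C libraries without overlap (log2 fold change 1.33 ± 0.046 SE, adjusted p = 7.66e-13). Smaller rises were found in the acyl-carnitine carrier Slc25a20 (log2 fold change 0.52 ± 0.097 SE, adjusted p = 0.000497), and in the beta-oxidation enzymes Acadl (log2 fold change 0.50 ± 0.061 SE, adjusted p = 6.47e-06), and Acaa2 (log2 fold change 0.70 ± 0.072 SE, adjusted p = 7.63e-07). Acot1, an acyl-CoA thioesterase, had 2.18, 3.38, 3.04 and 3.89 CPM in L_O, against 0.857, 0.415, 0.947 and 0.360 CPM in L_C, low levels at which the groups still did not overlap (log2 fold change 2.28 ± 0.43 SE, adjusted p = 0.000573). The lower member was the receptor Pparg itself. Pparg had 50.5, 53.4, 53.4 and 55.1 CPM in L_O, against 94.3, 86.8, 83.2 and 104 CPM in L_C, with all L_O libraries below all L_C libraries (log2 fold change -0.80 ± 0.068 SE, adjusted p = 7.27e-08).

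Lipid storage genes split. Plin2, the coat protein of lipid droplets, had 1593, 1634, 1551 and 1554 CPM in L_O, against 885, 868, 931 and 688 CPM in L_C. Hilpda, an inhibitor of the lipase ATGL that sits on lipid droplets, had 15.8, 20.6, 18.9 and 19.4 CPM in L_O, against 11.3, 10.6, 12 and 8.67 CPM in L_C. Both rose without overlap (Plin2, log2 fold change 0.91 ± 0.066 SE, adjusted p = 8.69e-09, and Hilpda, 0.81 ± 0.12, adjusted p = 3.72e-05). The lipases and a fatty acid carrier went the other way, and 5 of 14 tested genes of the list were lower. Fabp4, a fatty acid binding protein, had 189.6, 209.6, 198 and 199 CPM in L_O, against 321, 327, 317 and 291 CPM in L_C, with no overlap (log2 fold change -0.66 ± 0.045 SE, adjusted p = 4.71e-09). Mgll, monoacylglycerol lipase, had 142, 147, 144 and 134 CPM in L_O, against 241, 225, 214 and 206 CPM in L_C, also apart (log2 fold change -0.65 ± 0.051 SE, adjusted p = 2.72e-08). Lipe and Pnpla2, which encode the lipases HSL and ATGL, fell as well (Lipe, log2 fold change -0.54 ± 0.091 SE, adjusted p = 0.000203, and Pnpla2, -0.45 ± 0.076, adjusted p = 0.000195). Lpl, lipoprotein lipase, had 715, 744, 728 and 759 CPM in L_O, against 933, 950.4, 1415 and 822 CPM in L_C, where L_C_3 was far above its group. Its fall (log2 fold change -0.48 ± 0.14 SE, adjusted p = 0.0172) was lost without L_C_3, at an adjusted p of 0.0725.

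Cholesterol synthesis genes moved one way. Of 27 tested genes of the pathway and its regulators 19 were lower and none higher (median log2 fold change -0.50), and 20 were lower without L_C_4. No member was higher at an unadjusted p under 0.05 either, nor with DESeq2 or limma-voom. Sc5d, lathosterol oxidase, had 39.1, 38, 46.4 and 44.9 CPM in L_O, against 77.7, 76.6, 84.5 and 97.3 CPM in L_C. Insig1, an anchor of SREBP, had 72.7, 74, 74.7 and 65.8 CPM in L_O, against 111, 119.9, 114 and 111 CPM in L_C. Msmo1, a methylsterol oxidase, had 84.1, 85.4, 83.4 and 83.4 CPM in L_O, against 121, 122, 139 and 133 CPM in L_C. In each of the 3 the highest L_O library lay below the lowest L_C library, with log2 fold changes of -1.0 ± 0.078 for Sc5d (adjusted p = 2.45e-08), -0.67 ± 0.048 for Insig1 (adjusted p = 7.47e-09) and -0.62 ± 0.047 for Msmo1 (adjusted p = 1.63e-08). Fdft1, squalene synthase, also fell (log2 fold change -0.89 ± 0.073 SE, adjusted p = 4.47e-08), although its annotation overlaps that of the abundant Ctsb on the opposite strand and the counting strand is not given in the sources used here.

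Sterol efflux genes did not follow a single direction. Of 24 tested members 4 were higher and 8 lower, which became 7 and 6 with no scaling. Abca1, the LXR-driven cholesterol exporter, had 171, 153, 173 and 171 CPM in L_O, against 154, 159, 184 and 186 CPM in L_C. The groups overlapped (log2 fold change -0.03 ± 0.064 SE, adjusted p = 0.784). Abcg1, the exporter to HDL, had 187, 191, 195 and 203 CPM in L_O, against 262, 261, 269.8 and 257 CPM in L_C, all L_O libraries below all L_C libraries (log2 fold change -0.44 ± 0.040 SE, adjusted p = 1.45e-07). Another LXR target, Mylip, a ubiquitin ligase, rose (log2 fold change 0.60 ± 0.054 SE, adjusted p = 1.27e-07), as did the phospholipid enzyme Lpcat3 (log2 fold change 0.48 ± 0.055 SE, adjusted p = 3.06e-06). Apoe and the lysosomal sterol carrier Npc2 fell (Apoe, log2 fold change -0.31 ± 0.043 SE, adjusted p = 2.76e-05, and Npc2, -0.46 ± 0.084, adjusted p = 0.000493), although L_C_4 overlapped the L_O libraries for Npc2. In fatty acid synthesis 1 of 17 members was higher and 6 were lower. Fasn, fatty acid synthase, had 30.5, 36.3, 33.4 and 29.9 CPM in L_O, against 62.5, 52.8, 63.1 and 67.1 CPM in L_C, with no overlap (log2 fold change -0.92 ± 0.097 SE, adjusted p = 1.12e-06). Scd2, a stearoyl-CoA desaturase, had 53.9, 59.7, 59.2 and 53.3 CPM in L_O, against 118, 106, 164 and 123 CPM in L_C, likewise apart (log2 fold change -1.18 ± 0.10 SE, adjusted p = 1.18e-07). Acss2, which makes acetyl-CoA from acetate, fell too (log2 fold change -1.2 ± 0.14 SE, adjusted p = 2.47e-06).

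**Figure D3:**
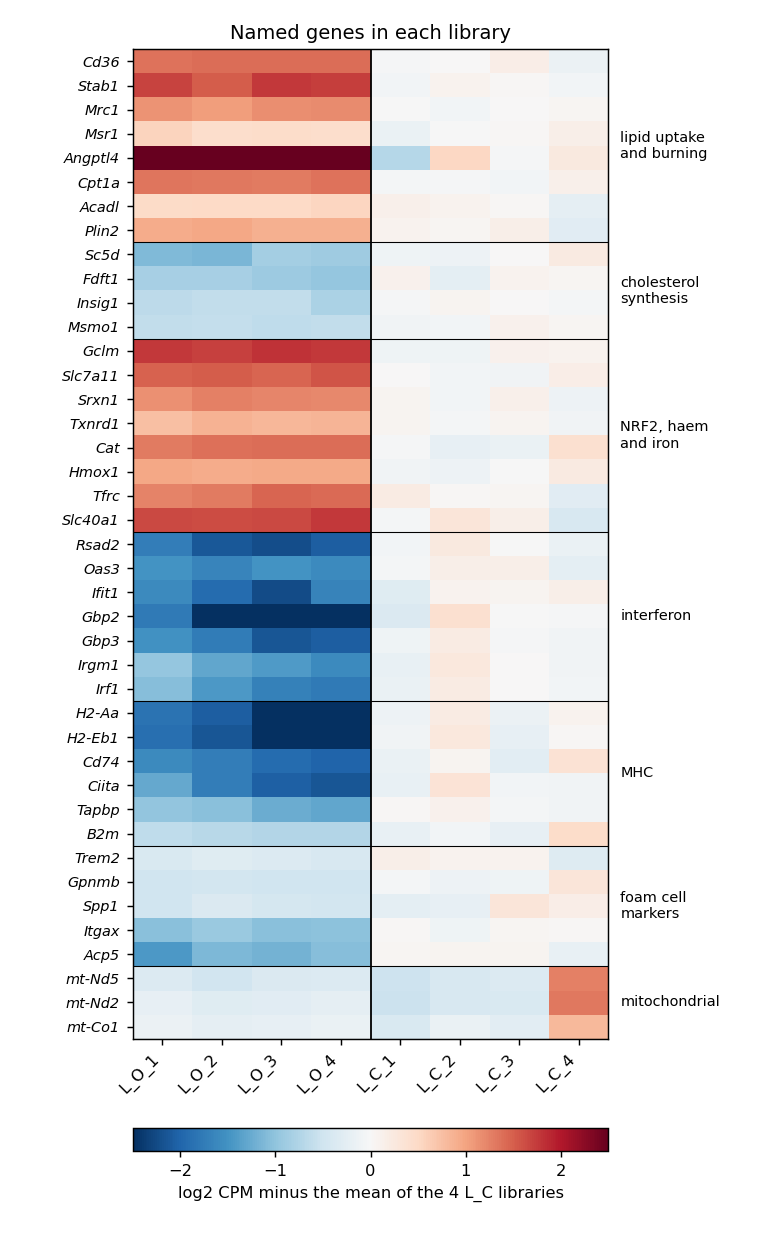
Level of 41 genes named in the text in each of the 8 libraries, as log2 CPM minus the mean of the 4 L_C libraries (red above it, blue below it, colours end at 2.5 either way). The 4 L_O libraries on the left are alike within most rows, while L_C_4 on the right differs from the other L_C libraries in the mitochondrial rows at the bottom.

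Most antioxidant genes that NRF2 is known to drive rose. In the glutathione list 11 of 18 tested members were higher and 1 lower (median log2 fold change 0.47, and 10 and 2 without L_C_4). In the thioredoxin and NADPH list 17 of 21 were higher and 2 lower (median 0.68, and 17 and 3 without L_C_4). Gclm, a subunit of the enzyme that starts glutathione synthesis, had 169, 162, 172 and 167 CPM in L_O, against 46, 46, 53.5 and 52.2 CPM in L_C. Slc7a11, the cystine importer, had 119, 124, 118 and 128 CPM in L_O, against 43.4, 41, 40.6 and 48.2 CPM in L_C. Abcc1, which exports glutathione conjugates, had 219, 212, 232 and 217 CPM in L_O, against 93.4, 89, 92.4 and 83 CPM in L_C. All 4 L_O libraries were more than 2-fold above the nearest L_C library in each of these genes, with log2 fold changes of 1.76 ± 0.050 for Gclm (adjusted p = 6.53e-14), 1.5 ± 0.068 for Slc7a11 (adjusted p = 2.57e-11) and 1.30 ± 0.058 for Abcc1 (adjusted p = 2.24e-11). Srxn1, sulfiredoxin, had 208, 225, 221 and 217 CPM in L_O, against 98.5, 90.4, 103 and 85.9 CPM in L_C (log2 fold change 1.2 ± 0.058 SE, adjusted p = 6.43e-11). Prdx1, a peroxiredoxin, had 1914, 1922, 1829 and 1885 CPM in L_O, against 940.0, 955, 1069 and 696 CPM in L_C (log2 fold change 1.04 ± 0.083 SE, adjusted p = 2.83e-08). Cat, catalase, had 346, 364, 367 and 368 CPM in L_O, against 137, 121, 126 and 185 CPM in L_C (log2 fold change 1.34 ± 0.099 SE, adjusted p = 1.02e-08). None of these overlapped, and L_C_4 was the lowest L_C library for Prdx1 and the highest for Cat. Txnrd1 and the NADPH-producing enzyme Pgd rose less (Txnrd1, log2 fold change 0.82 ± 0.049 SE, adjusted p = 7.03e-10, and Pgd, 0.68 ± 0.039, adjusted p = 4.67e-10). Members that went the other way were Gpx1, a glutathione peroxidase (log2 fold change -0.71 ± 0.040 SE, adjusted p = 4.17e-10), Txn1, thioredoxin itself (log2 fold change -0.61 ± 0.062 SE, adjusted p = 6.28e-07), and Nfe2l2, the gene for NRF2, at -0.43 (-0.26 without L_C_4).

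Iron genes were mainly higher, 11 of 15 tested members against 3 lower, and 6 with the 8 libraries fitted alone. Hmox1, the haem-degrading oxygenase, had 542, 526, 536 and 535 CPM in L_O, against 261, 253, 274 and 323 CPM in L_C. Tfrc, the transferrin receptor that imports iron, had 544, 563, 629 and 612 CPM in L_O, against 264, 235, 238 and 190.4 CPM in L_C. Slc40a1, ferroportin, which exports iron, had 35.9, 35.8, 35.9 and 39.1 CPM in L_O, against 11.1, 14.2, 12.7 and 8.72 CPM in L_C. Importer and exporter thus both lay higher in all 4 L_O libraries, with log2 fold changes of 1.34 ± 0.081 for Tfrc (adjusted p = 8.84e-10) and 1.65 ± 0.14 for Slc40a1 (adjusted p = 5.07e-08), and Hmox1 did not overlap either (log2 fold change 0.94 ± 0.060 SE, adjusted p = 1.56e-09). The haem carrier Slc48a1 and the biliverdin reductase Blvrb rose (Slc48a1, log2 fold change 0.52 ± 0.034 SE, adjusted p = 1.95e-09, and Blvrb, 0.73 ± 0.066, adjusted p = 1.35e-07), while Ncoa4, which delivers ferritin to the lysosome, fell (log2 fold change -0.56 ± 0.082 SE, adjusted p = 4.84e-05).

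The element bound by NRF2 (ARE, letters TGACNNNGC, either strand) stood in the 250 bases upstream of the start in 3 of 14 glutathione genes, 4 of 20 thioredoxin and NADPH genes and 2 of 11 iron genes with a RefSeq promoter entry, against 13.9% of 9858 tested genes. The SREBP element (SRE, TCACNCCAC, either strand) was found in 1 of 21 cholesterol genes, Hmgcs1, against 1.19% of all. A match is only a match of letters, and a missing match says nothing of the factor. Here and below, the lists hold genes already linked to each pathway. Their share with an element thus describes the list, not the response to ox-LDL. The window of Gclm (chr3:122245383-122245471, plus strand, RefSeq, GRCm38.p6) is shown because this gene had the smallest adjusted p among the antioxidant genes with the element, with the ARE in capitals, which reads on the opposite strand and begins 134 bases before the start.
Gclm: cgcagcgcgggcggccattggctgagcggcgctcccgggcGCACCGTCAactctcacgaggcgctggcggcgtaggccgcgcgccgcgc

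Genes that ATF4 drives when amino acids are short were higher in 15 of 29 tested cases and lower in 4, with a median log2 fold change of 0.29. Asns, asparagine synthetase, had 33, 26.6, 31.2 and 27.2 CPM in L_O, against 14.1, 16, 16.8 and 12.6 CPM in L_C. Atf5, a related transcription factor, had 71.3, 76.3, 74.4 and 76.2 CPM in L_O, against 47.4, 48.1, 46.7 and 38.9 CPM in L_C. The L_O libraries were above the L_C libraries throughout (Asns, log2 fold change 0.99 ± 0.094 SE, adjusted p = 2.87e-07, and Atf5, 0.72 ± 0.077, adjusted p = 1.2e-06). Phgdh, which starts serine synthesis, rose (log2 fold change 1.08 ± 0.15 SE, adjusted p = 3.18e-05), though 47.8% of its 50-base stretches occur in other genes. Among the lower members was Atf3, a stress-induced factor. Atf3 had 219, 221, 207 and 209 CPM in L_O, against 384, 357, 365 and 251 CPM in L_C, with L_C_4 closest to the L_O libraries and no overlap (log2 fold change -0.66 ± 0.090 SE, adjusted p = 1.91e-05). The composite element of this pathway (CARE, TGATGCAA, either strand) lay upstream of 7 of 25 list genes, against 0.659% of all 9858 genes. Windows are shown for the 3 of them with the smallest adjusted p-values, from RefSeq on GRCm38.p6. They are written along the gene's strand with the element in capitals. Slc7a11, given above, and Aars rose (Aars, log2 fold change 0.29 ± 0.040 SE, adjusted p = 2.31e-05), and Atf3 fell. The regions are chr3:50443614-50443719 (minus strand), chr8:111033690-111033777 (plus strand) and chr1:191183396-191183483 (minus strand).
Slc7a11: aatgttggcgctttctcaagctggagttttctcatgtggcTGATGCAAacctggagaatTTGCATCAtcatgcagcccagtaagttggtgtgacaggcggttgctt
Aars: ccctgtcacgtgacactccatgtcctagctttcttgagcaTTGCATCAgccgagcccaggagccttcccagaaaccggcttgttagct
Atf3: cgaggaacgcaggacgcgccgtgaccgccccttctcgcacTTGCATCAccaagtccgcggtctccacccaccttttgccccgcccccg

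Targets and feedback inhibitors of the ERK kinases were higher in 9 of 22 tested cases and lower in 2. Dusp6, the ERK phosphatase, had 42.9, 41.4, 42.8 and 41.1 CPM in L_O, against 9.55, 8.76, 10.9 and 7.23 CPM in L_C. Spred2, an inhibitor of RAF activation, had 30.9, 28.9, 30.4 and 34.2 CPM in L_O, against 10.9, 10.9, 12.4 and 15.5 CPM in L_C. Fos, an immediate-early factor, had 23.5, 27.6, 29 and 22.6 CPM in L_O, against 9.49, 9.65, 13.1 and 9.96 CPM in L_C. The lowest L_O library was well above the highest L_C library in all 3 (Dusp6, log2 fold change 2.21 ± 0.15 SE, adjusted p = 3.02e-09, Spred2, 1.32 ± 0.11, adjusted p = 5.56e-08, and Fos, 1.28 ± 0.12, adjusted p = 2.4e-07). Dusp4 and Etv5 rose by about as much as Spred2 and Fos (Dusp4, log2 fold change 1.26 ± 0.15 SE, adjusted p = 3.84e-06, and Etv5, 1.08 ± 0.15, adjusted p = 1.85e-05). Of the 50-base stretches of Etv5 24.5% occur in another entry. Egr1 and Egr2, immediate-early factors as well, fell (Egr1, log2 fold change -1.66 ± 0.21 SE, adjusted p = 1.09e-05, and Egr2, -0.65 ± 0.073, adjusted p = 2.29e-06).

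Interferon-stimulated genes were lower as a group. Of 35 tested antiviral genes 22 were lower and none higher (median log2 fold change -0.69, and 24 lower without L_C_4). Of 20 tested guanylate-binding proteins (GBP), immunity-related GTPases (IRG) and other interferon-gamma genes 18 were lower and none higher (median -1.65, and 18 without L_C_4). No member of either list was higher at an unadjusted p under 0.05, nor with DESeq2 or limma-voom. Rsad2, the antiviral enzyme viperin, had 27.9, 21.3, 19.9 and 22.3 CPM in L_O, against 88.5, 109.8, 91.9 and 82.9 CPM in L_C. Oas3, which makes the messenger that activates RNase L, had 56.9, 51, 56.8 and 53.4 CPM in L_O, against 155, 178, 178 and 136 CPM in L_C. Ifit1, which binds foreign RNA caps, had 5.38, 4.27, 3.48 and 5.09 CPM in L_O, against 13.3, 17.3, 17 and 17.9 CPM in L_C. The groups were apart in all 3, with log2 fold changes of -2.03 ± 0.11 for Rsad2 (adjusted p = 2.02e-10), -1.57 ± 0.077 for Oas3 (adjusted p = 7.04e-11) and -1.85 ± 0.16 for Ifit1 (adjusted p = 6.03e-08). Ifit2 had 38, 1.07, 26.7 and 26.3 CPM in L_O, against 149.9, 209, 167 and 139 CPM in L_C. L_O_2 was far below the other L_O libraries, so the size of the Ifit2 fall (log2 fold change -2.86 ± 0.64 SE, adjusted p = 0.00268) rests in part on that library. Ifit2 passed under all 16 alternatives described below, leaving out L_O_2 among them, with log2 fold changes between -3.70 and -2.46. The transcription factor Irf7 fell (log2 fold change -1.04 ± 0.12 SE, adjusted p = 3.41e-06). Oas1a had 54.6, 53.3, 59.1 and 62.2 CPM in L_O, against 58.4, 64.3, 63.9 and 47.2 CPM in L_C, with overlapping groups (log2 fold change -0.028 ± 0.087 SE, adjusted p = 0.857), and it shares 57.6% of its 50-base stretches with other genes, chiefly Oas1g.

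The GBP genes were among the clearest of the interferon-gamma list. Gbp2 had 96, 53.2, 46.6 and 38.9 CPM in L_O, against 256, 435, 324 and 321 CPM in L_C. Gbp3 had 37.9, 32.3, 24.6 and 25.9 CPM in L_O, against 101, 125, 107 and 102 CPM in L_C. Gbp4 had 10.2, 2.91, 2.09 and 2.56 CPM in L_O, against 10.9, 36.5, 23.9 and 19.3 CPM in L_C. These GTPases coat vacuoles that hold pathogens. None overlapped, although the gap was narrow for Gbp4, where L_O_1 came close to L_C_1, and the log2 fold changes were -2.51 ± 0.26 for Gbp2 (adjusted p = 8.19e-07), -1.85 ± 0.13 for Gbp3 (adjusted p = 6.55e-09) and -2.35 ± 0.45 for Gbp4 (adjusted p = 0.000672). Irf1, a transcription factor that relays the interferon-gamma signal, had 119.5, 91.9, 77.3 and 72.7 CPM in L_O, against 223, 288, 251 and 239 CPM in L_C (log2 fold change -1.47 ± 0.16 SE, adjusted p = 1.95e-06). Irgm1, an immunity-related GTPase, had 113, 89.9, 82.7 and 73.6 CPM in L_O, against 195, 265, 225 and 208 CPM in L_C (log2 fold change -1.31 ± 0.16 SE, adjusted p = 5.3e-06). Within L_O 1 library stood out, since L_O_1 was the highest of the 4 for 17 of the 20 GBP and IRG genes, 20 of the 35 antiviral genes and 13 of 16 MHC class II genes. Relative to the L_C mean, the median log2 level of the GBP and IRG list was -1.03 in L_O_1, -1.50 in L_O_2, -1.64 in L_O_3 and -1.71 in L_O_4. Among L_C libraries L_C_2 was the highest for 16 of the 20. The summed T and NK cell markers given above were also lower in L_O, and their part in these results was not tested.

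The interferon-stimulated response element (ISRE, GAAA and GAAA with any 2 bases between, either strand) occurred in the 250 bases upstream of 12 of the 15 GBP and IRG genes and 12 of the 25 antiviral genes with a RefSeq promoter entry, against 3.47% of all 9858 genes. Both lists hold genes already known as interferon genes, so these shares describe the lists and not the response to ox-LDL. Among the antiviral genes with the element were Rsad2, Oas3 and Ifit1, which fell, and Oas1a, which did not pass the test. The windows of Oas3 (chr5:120777685-120777774, minus strand), Rsad2 (chr12:26456523-26456612, minus strand) and Gbp3 (chr3:142559959-142560043, plus strand) are printed because they are the genes with the element and the smallest adjusted p-values. They come from RefSeq on GRCm38.p6, read along the gene's strand, with the element in capitals. The element begins 75 bases before the start in Oas3, 120 in Rsad2 and 45 in Gbp3, where 2 overlapping copies are capitalised as 1 run. In Rsad2 and Gbp3 it reads on the opposite strand, as TTTC and TTTC with 2 bases between.
Oas3: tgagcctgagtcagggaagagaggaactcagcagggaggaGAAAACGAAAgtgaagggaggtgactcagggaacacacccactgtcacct
Rsad2: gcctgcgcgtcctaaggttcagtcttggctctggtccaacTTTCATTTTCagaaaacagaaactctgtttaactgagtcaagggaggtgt
Gbp3: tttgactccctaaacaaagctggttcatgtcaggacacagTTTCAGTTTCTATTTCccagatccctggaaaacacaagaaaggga

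Transcripts of antigen presentation genes were mostly lower, as were the interferon genes. Of 16 tested genes of MHC class II and costimulation 11 were lower and 1 higher (median log2 fold change -0.74), and of 24 genes of MHC class I and peptide loading 20 were lower and none higher (median -0.72, and 23 lower without L_C_4). No class I gene was higher at an unadjusted p under 0.05, nor with DESeq2 or limma-voom. H2-Aa, a class II alpha chain on chromosome 17 (34282744 to 34287823), had 274, 234, 167 and 176 CPM in L_O, against 899.8, 1129, 881 and 1037 CPM in L_C. H2-Eb1, a class II beta chain, had 107, 89.4, 68.8 and 68.2 CPM in L_O, against 372, 471, 341 and 404 CPM in L_C. Cd74, the invariant chain that guides class II molecules, had 1081, 985, 865 and 821 CPM in L_O, against 2923, 3430, 2715 and 4205 CPM in L_C. Each was more than 2-fold lower in every L_O library than in any L_C library (H2-Aa, log2 fold change -2.21 ± 0.22 SE, adjusted p = 4.48e-07, H2-Eb1, -2.25 ± 0.24, adjusted p = 9.81e-07, and Cd74, -1.82 ± 0.16, adjusted p = 1.02e-07). Ciita, the master activator of class II genes, had 19, 13.9, 11.2 and 10.5 CPM in L_O, against 40.7, 58, 43.9 and 43.6 CPM in L_C. All L_O libraries were lower than all L_C libraries, and L_O_1 was again the highest L_O library (log2 fold change -1.77 ± 0.24 SE, adjusted p = 1.86e-05). The exception was Cd80, a costimulator, which was higher by 0.46. Tapbp, tapasin, which loads peptide on class I, had 357, 344, 300.2 and 291 CPM in L_O, against 723, 768, 691 and 669 CPM in L_C (log2 fold change -1.14 ± 0.088 SE, adjusted p = 1.95e-08). Other entries overlap 29.0% of the exon bases of Tapbp. B2m, the light chain of class I, had 3166, 3033, 2953 and 2964 CPM in L_O, against 4341, 4684, 4300 and 6800 CPM in L_C, where L_C_4 was far above its group. Without L_C_4 the log2 fold change of B2m was -0.55 rather than -0.73 ± 0.11, with an adjusted p of 3.98e-08. Tap1, a peptide transporter, fell (log2 fold change -1.09 ± 0.16 SE, adjusted p = 3.86e-05). Of the dendritic cell markers, Clec9a was at 0.0544 to 0.484 CPM in L_O and 1.06 to 1.96 CPM in L_C, and of the B cell markers, Cd79a was at 0 to 0.423 CPM in L_O and 0.138 to 0.681 CPM in L_C.

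Class II promoters carry a Y box (CTGATTGG, either strand), which NF-Y binds beside the factors that recruit the activator CIITA. It was present upstream of 3 of the 10 class II list genes with a promoter entry, against 6.37% of all. The windows of H2-Aa (chr17:34287827-34287914, minus strand) and H2-Eb1 (chr17:34305765-34305852, plus strand), the 2 chains with the element that passed the test, are given along the gene's strand, from the same RefSeq table, with the Y box in capitals.
H2-Aa: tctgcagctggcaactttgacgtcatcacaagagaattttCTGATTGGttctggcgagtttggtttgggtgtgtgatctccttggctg
H2-Eb1: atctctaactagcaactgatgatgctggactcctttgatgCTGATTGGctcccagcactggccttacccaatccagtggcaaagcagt

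**Figure D4:**
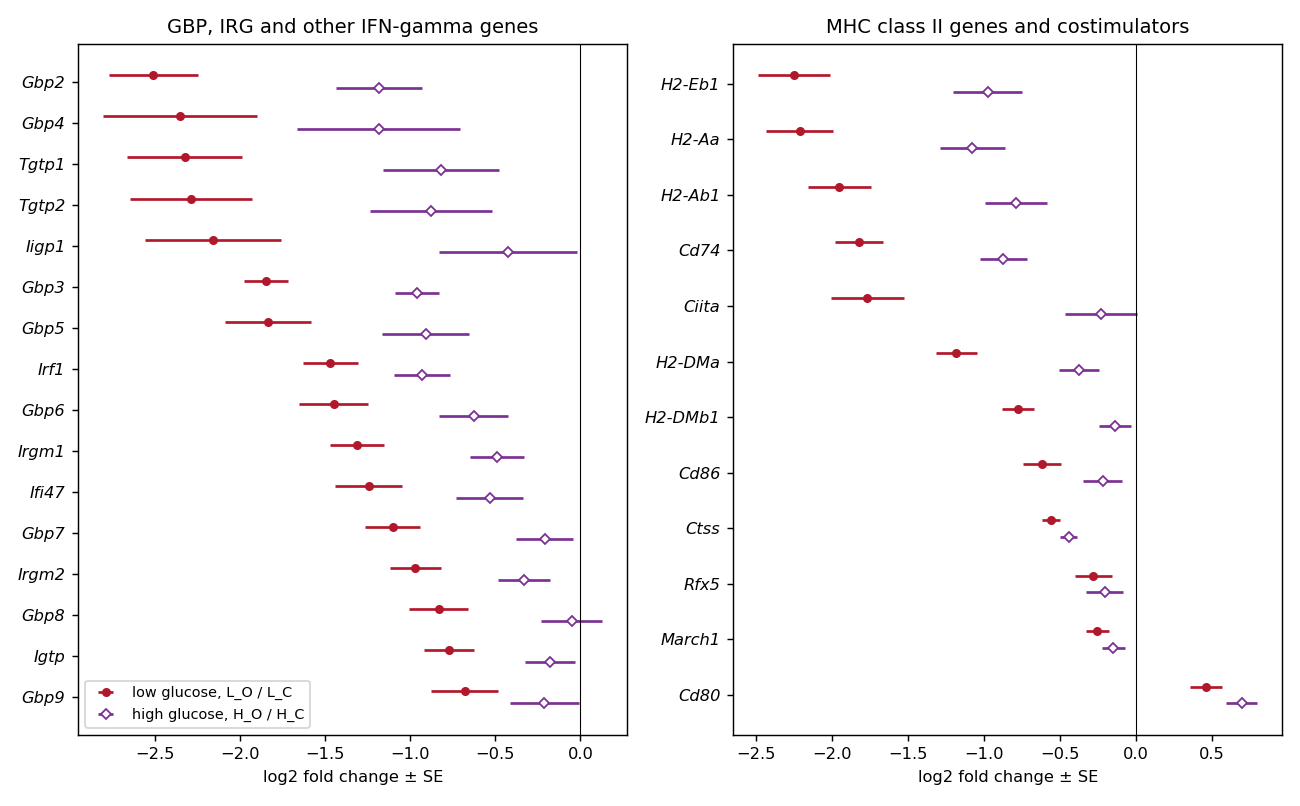
Log2 fold change ± SE of ox-LDL over its control in low glucose (red, L_O over L_C) and in high glucose (purple diamonds, H_O over H_C), for GBP, IRG and other interferon-gamma genes (left) and MHC class II genes and costimulators (right) whose mean log2 CPM was 3 or more. For each of the genes called lower in L_O the red point lies further left than the purple one. Picking genes by their call in low glucose favours this pattern. No single gene of these lists passed edgeR's test of the difference.

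Inflammatory genes were lower more often than higher, 17 against 2 of 31 tested. Il18bp, the decoy receptor for IL-18, had 37.9, 25.8, 19 and 18.8 CPM in L_O, against 73.3, 96.6, 79 and 127 CPM in L_C (log2 fold change -1.89 ± 0.25 SE, adjusted p = 1.35e-05). Gadd45b, an NF-kB target, had 30, 33.9, 30.6 and 29.9 CPM in L_O, against 102, 96.6, 96.1 and 68.1 CPM in L_C (log2 fold change -1.54 ± 0.10 SE, adjusted p = 1.99e-09). Neither overlapped between groups. Tnf had 11.8, 8.47, 12 and 14.3 CPM in L_O, against 9.40, 11, 9.71 and 11 CPM in L_C, with overlapping groups (log2 fold change 0.18 ± 0.13 SE, adjusted p = 0.38). Il1b was at 0 to 0.136 CPM in L_O and 0 to 0.498 CPM in L_C, too low to be compared. Among chemokines 2 of 17 were higher and 6 lower, against 12% and 13.8% of all tested entries. Ccl5, which recruits T cells, had 7.35, 6.24, 7.68 and 7.24 CPM in L_O, against 23.7, 25.7, 21.2 and 17 CPM in L_C, all L_O libraries below all L_C libraries (log2 fold change -1.62 ± 0.14 SE, adjusted p = 6.25e-08). Of 13 receptors for chemokines and other attractants 2 were higher and 7 lower (4 and 7 without L_C_4). Ccrl2, a chemerin-binding receptor, had 37.9, 44.9, 42.2 and 38.8 CPM in L_O, against 131, 125, 104 and 105 CPM in L_C (log2 fold change -1.51 ± 0.082 SE, adjusted p = 2.76e-10). C5ar1, the C5a receptor, had 106, 108, 116 and 113 CPM in L_O, against 57.8, 57.6, 69 and 68.7 CPM in L_C (log2 fold change 0.80 ± 0.068 SE, adjusted p = 6.19e-08). Ccrl2 was lower and C5ar1 higher in every L_O library.

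Receptors for microbes and dying cells were redistributed. Besides Clec4n, 5 of 18 C-type lectins rose and 7 fell. Clec4d, a partner of Dectin-2, had 525, 538, 525 and 512 CPM in L_O, against 319, 319.7, 309 and 269 CPM in L_C. Clec7a, Dectin-1, the receptor for beta-glucans, had 1134, 1067, 1047 and 1031 CPM in L_O, against 1667, 1767, 1664 and 1896 CPM in L_C. Clec12a, an inhibitory lectin, had 115, 111, 100.3 and 106 CPM in L_O, against 225, 254, 247 and 248 CPM in L_C. Clec4d was higher and the other 2 were lower in every L_O library (Clec4d, log2 fold change 0.79 ± 0.051 SE, adjusted p = 1.95e-09, Clec7a, -0.71 ± 0.048, adjusted p = 3.75e-09, and Clec12a, -1.17 ± 0.063, adjusted p = 2.4e-10). Of 7 siglecs 1 rose and 3 fell. Cd33 had 275, 281, 278 and 288 CPM in L_O, against 123, 131, 131 and 186 CPM in L_C (log2 fold change 0.97 ± 0.092 SE, adjusted p = 2.61e-07). Siglecf had 3.69, 4.40, 4.98 and 3.73 CPM in L_O, against 20.6, 16.9, 18.8 and 14.2 CPM in L_C (log2 fold change -2.07 ± 0.13 SE, adjusted p = 1.39e-09). Siglecf also marks eosinophils, and the other eosinophil markers had too few reads to be tested. Among 18 Toll-like receptor genes and partners 9 were lower and 1 higher (9 and 3 without L_C_4), with Cd14 at -0.75 ± 0.072 (adjusted p = 2.88e-07). Fc receptors rose in 1 and fell in 3 of 8 cases, and the rise was lost without L_C_4. Complement genes rose in 5 and fell in 6 of 20 cases, and integrins in 2 and 8 of 17. For all the lists of this paragraph the shares over all tested entries were 12% higher and 13.8% lower.

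Genes for clearing dying cells rose in 8 and fell in 6 of 22 cases. Gas6, the bridge between phosphatidylserine and the receptors Axl and Mertk, had 260.5, 274, 291 and 269 CPM in L_O, against 61.2, 61.5, 60.9 and 70.5 CPM in L_C. Axl had 291, 266, 247 and 249.8 CPM in L_O, against 389, 433, 392 and 404 CPM in L_C. Mfge8, another phosphatidylserine bridge, had 166, 192, 169 and 164 CPM in L_O, against 546, 476, 496 and 539 CPM in L_C. The ligand was about 4-fold higher, and Axl and the other bridge were lower, in all 4 L_O libraries. The log2 fold changes were 2.11 ± 0.053 for Gas6 (adjusted p = 1.53e-14), -0.62 ± 0.078 for Axl (adjusted p = 7.8e-06) and -1.57 ± 0.064 for Mfge8 (adjusted p = 5.73e-12). Mertk, the other receptor, did not pass the test with L_C_4 included.

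Genes that mark lipid-associated macrophages in tissue were mostly lower, 12 of 21 tested against 2 higher (15 and 2 without L_C_4), the higher ones being Cd36 and Plin2. Gpnmb, a lysosomal glycoprotein, had 18001, 18680, 18203 and 18070 CPM in L_O, against 24620, 23252, 23639 and 31497 CPM in L_C. Trem2, a lipid receptor, had 516, 546, 535 and 509.7 CPM in L_O, against 741, 721, 713 and 539.9 CPM in L_C. Spp1, osteopontin, had 1194, 1317, 1245 and 1225 CPM in L_O, against 1416, 1463, 2078 and 1881 CPM in L_C. Itgax, CD11c, had 372, 400.1, 372 and 374 CPM in L_O, against 777, 712, 796 and 782 CPM in L_C. The groups did not overlap for Gpnmb, Spp1 and Itgax. For Trem2 they touched at L_C_4, which lay within the L_O range, and L_C_4 was the highest library for Gpnmb. Their log2 fold changes were -0.50 ± 0.067 for Gpnmb (adjusted p = 1.84e-05), -0.37 ± 0.072 for Trem2 (adjusted p = 0.000902), -0.46 ± 0.089 for Spp1 (adjusted p = 0.000815) and -1.01 ± 0.056 for Itgax (adjusted p = 2.85e-10). Among 35 lysosomal genes 17 were lower and 2 higher (19 and 7 without L_C_4, 11 and 6 with no scaling). Acp5, an acid phosphatase, had 18.4, 23.1, 22 and 23.9 CPM in L_O, against 51.8, 52.6, 52.4 and 43.9 CPM in L_C (log2 fold change -1.2 ± 0.097 SE, adjusted p = 3.67e-08). Atp6v0d2, a proton pump subunit, had 701, 726, 713 and 694 CPM in L_O, against 1177, 1143, 1148 and 1325 CPM in L_C (log2 fold change -0.76 ± 0.053 SE, adjusted p = 5.14e-09). Ctss, cathepsin S, which trims the invariant chain, fell (log2 fold change -0.56 ± 0.058 SE, adjusted p = 8.2e-07), with 8 of 16 cathepsins and inhibitors lower and none higher (10 and 1 without L_C_4). At an unadjusted p under 0.05 with all libraries no cathepsin was higher either, nor with DESeq2, while limma-voom called 1.

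Matrix genes fell more often than they rose. Of 18 secreted or surface matrix genes 4 were higher and 7 lower, and of 25 proteases and inhibitors 4 were higher and 8 lower. Over all tested entries 12% were higher and 13.8% lower. Sdc1, syndecan 1, had 74.7, 86.9, 67.8 and 62.5 CPM in L_O, against 339.6, 319.9, 291 and 217 CPM in L_C (log2 fold change -2.0 ± 0.11 SE, adjusted p = 3.71e-10). Fn1, fibronectin, had 207, 216, 239 and 232 CPM in L_O, against 424, 417, 438 and 619.6 CPM in L_C (log2 fold change -1.09 ± 0.15 SE, adjusted p = 1.62e-05). Htra1, a secreted serine protease, had 2.93, 2.83, 2.32 and 2.15 CPM in L_O, against 13.6, 13.5, 11.5 and 10.8 CPM in L_C (log2 fold change -2.27 ± 0.11 SE, adjusted p = 8.41e-11). All 3 were lower in every L_O library, and L_C_4 stood above its group for Fn1. Tgfbi had 108, 102, 104 and 110.1 CPM in L_O, against 21.8, 32.3, 29.9 and 42.1 CPM in L_C, the opposite direction without overlap (log2 fold change 1.75 ± 0.15 SE, adjusted p = 5.4e-08). The summed mesothelial and fibroblast markers given above were lower in L_O as well, and their part was not tested.

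Identity genes were lower more often than higher. Markers of alternative activation rose in 4 and fell in 6 of 14 cases. Of 26 lineage transcription factors 5 were higher and 14 lower, against 12% and 13.8% of all tested entries. Maf, which holds macrophages in a resting state, had 269, 264, 269 and 289 CPM in L_O, against 123, 132, 139 and 175 CPM in L_C (log2 fold change 0.94 ± 0.080 SE, adjusted p = 6.57e-08). Irf8, needed for monocyte development, had 187, 173, 176 and 169 CPM in L_O, against 278, 297, 289 and 226 CPM in L_C (log2 fold change -0.63 ± 0.067 SE, adjusted p = 1.22e-06). The groups did not overlap in either gene, and L_C_4 was the L_C library nearest to L_O in both. Gata6, the factor of large peritoneal macrophages, was low and fell (log2 fold change -0.78 ± 0.22 SE, adjusted p = 0.014), as did Prg4, another marker of these cells (log2 fold change -1.21 ± 0.23 SE, adjusted p = 0.000598), which was at -0.78 without L_C_4. Of 16 markers of large peritoneal macrophages 8 were lower, of 9 genes that mark monocytes or small peritoneal macrophages 6, and none of either list was higher, at an unadjusted p under 0.05 or with DESeq2 or limma-voom included. Spi1, the gene for PU.1, fell by 0.28 on the log2 scale with L_C_4 and by 0.14 without it, a call that was lost with no scaling, with the 8 libraries fitted alone, and without L_O_3 or L_O_4. Cell cycle genes were higher in 13 of 40 cases and lower in 2. Mcm2, a subunit of the replicative helicase, had 19, 20, 21.5 and 20.7 CPM in L_O, against 12.1, 13.6, 13.7 and 10.9 CPM in L_C (log2 fold change 0.69 ± 0.083 SE, adjusted p = 4.86e-06). E2f2, a factor that drives S phase genes, had 19.2, 19.9, 20.1 and 19.4 CPM in L_O, against 13.7, 10.6, 8.91 and 10.5 CPM in L_C (log2 fold change 0.85 ± 0.11 SE, adjusted p = 9.43e-06). Neither gene overlapped between groups.

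Genes that respond to osmotic load were followed because of the mannitol in L_C. Of 17 members 6 were higher and 3 lower in L_O, and their median log2 fold change of -0.016 became 0.068 with no scaling and 0.10 without L_C_4. Slc5a3, the myo-inositol transporter, had 8.56, 9.59, 10.8 and 8.33 CPM in L_O, against 6.74, 7.08, 4.02 and 5.51 CPM in L_C. Akr1b3, the aldose reductase that makes sorbitol, had 101, 104, 97.6 and 98.8 CPM in L_O, against 80.1, 84.9, 79.7 and 74.6 CPM in L_C. Slc6a6, the taurine transporter, had 1748, 1740, 1846 and 1754 CPM in L_O, against 1557, 1422, 1422 and 1671 CPM in L_C. In each the L_O libraries, whose label names no mannitol, were the higher ones without overlap (Slc5a3, log2 fold change 0.68 ± 0.16 SE, adjusted p = 0.00342, Akr1b3, 0.33 ± 0.050, adjusted p = 6.15e-05, and Slc6a6, 0.22 ± 0.048, adjusted p = 0.00189). Slc38a2, a carrier of neutral amino acids, rose too (log2 fold change 0.35 ± 0.048 SE, adjusted p = 1.82e-05). Sgk1, a kinase induced by hypertonic stress, and Hspa1a, a heat shock gene, fell (Sgk1, log2 fold change -0.64 ± 0.052 SE, adjusted p = 3.93e-08, and Hspa1a, -1.22 ± 0.20, adjusted p = 0.000155), and Hspa1a shares most of its 50-base stretches with its twin Hspa1b.

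Glycolysis and hypoxia genes split between directions. Of 24 glycolysis genes 5 were higher and 4 lower (9 and 3 with no scaling), and of 17 hypoxia genes 4 were higher and 4 lower. Vegfa, the angiogenic growth factor, had 85, 76.2, 81.4 and 78.9 CPM in L_O, against 154, 175, 166 and 189 CPM in L_C (log2 fold change -1.09 ± 0.087 SE, adjusted p = 3.24e-08). P4ha2, a collagen prolyl hydroxylase, had 7.68, 9.88, 8.54 and 9.42 CPM in L_O, against 1.68, 1.85, 1.42 and 2.47 CPM in L_C (log2 fold change 2.25 ± 0.19 SE, adjusted p = 5.45e-08). These 2 hypoxia genes lay apart in opposite directions. Of 34 nuclear genes of oxidative phosphorylation 7 were higher (17 with no scaling, 2 with the 8 libraries fitted alone) and none lower, at an unadjusted p under 0.05 or with DESeq2 or limma-voom included.

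Mitochondrially encoded transcripts are where L_C_4 decided the value. With all 8 libraries none of 13 passed the test in edgeR or DESeq2, limma-voom called 1 higher, and at an unadjusted p under 0.05 edgeR had 1 higher and 1 lower. The median log2 fold change was -0.27 with L_C_4 and 0.25 without it, when 3 were higher. mt-Nd5 had 1419, 1292, 1397 and 1407 CPM in L_O, against 1255, 1364, 1408 and 4262 CPM in L_C. mt-Nd2 had 678, 635, 645 and 667 CPM in L_O, against 539.6, 593, 603 and 1952 CPM in L_C. mt-Co1, with 51.1% of its 50-base stretches in other entries too, had 9310, 8800, 9007 and 9193 CPM in L_O, against 7967, 9207, 8586 and 18103 CPM in L_C. In all 3 subunit genes of the respiratory chain L_C_4 was far above every other library. Over the whole list L_C_4 was the highest L_C library for 11 of the 13 genes. The log2 fold change of mt-Nd5 was -0.59 ± 0.27 with L_C_4 and 0.039 without it, that of mt-Nd2 -0.49 ± 0.28 and 0.18, and that of mt-Co1 -0.27 ± 0.17 and 0.081, and only the 0.18 of mt-Nd2 passed the test (adjusted p = 0.0125). Among the nuclear genes that moved most were Evi2b, Rnasek, Tomm6 and Gapdh. Evi2b had 20.9, 4.74, 12 and 63.8 CPM in L_O, against 21.9, 20.6, 12.6 and 156 CPM in L_C. Rnasek had 38.6, 22.2, 18.5 and 23.1 CPM in L_O, against 16.3, 36.7, 20 and 124 CPM in L_C. The first 3 of these symbols overlap other entries over most of their exon bases (98.5% for Evi2b, 67.7% for Rnasek and 84.2% for Tomm6), and Gapdh had 15.9, 26.4, 16 and 27.5 CPM in L_O, against 15, 20.9, 10.2 and 50.3 CPM in L_C, low for an mRNA that is usually abundant. Of its 50-base stretches 25.1% occur in other entries.

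**Figure D5:**
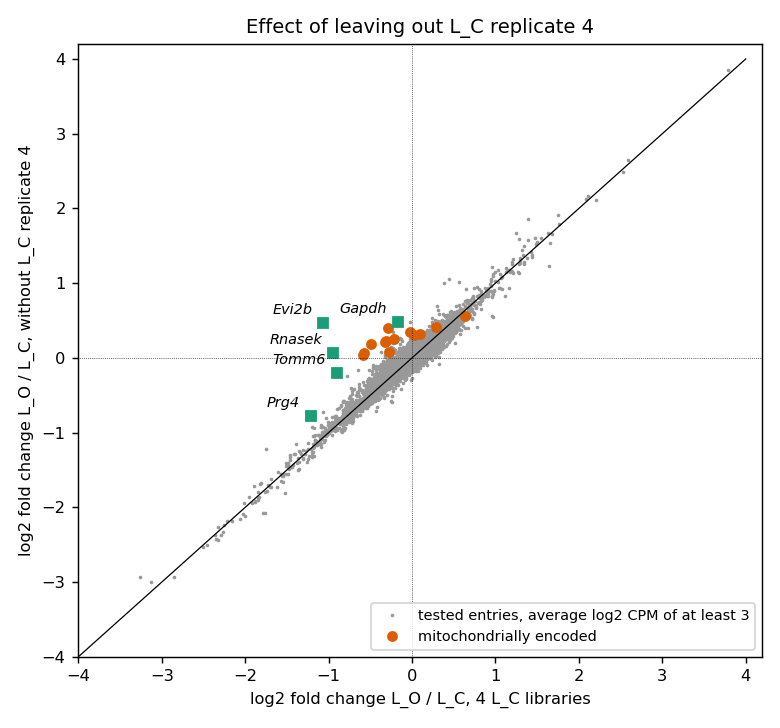
Log2 fold change of L_O over L_C with all 4 L_C libraries (x axis) and without L_C_4 (y axis), for tested entries whose mean log2 CPM was 3 or more, with the line of equality. Most mitochondrially encoded genes (orange) and the 5 named nuclear genes (green squares) lie above the line, and most other entries lie close to it.

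The same treatment in high glucose used other libraries throughout, and of the tested entries 1406 were higher (10.4%) and 1556 lower (11.5%) in H_O than in H_C. Of the 1623 entries higher in L_O 961 were also called higher in H_O against H_C, of the 1867 lower 1207 were also lower, and 5 entries were called in opposite directions. A test of the difference between the effects called 2 entries in edgeR (0.0148% of those tested), 1161 at an unadjusted p under 0.05, 95 in DESeq2 and 75 in limma-voom, and 53 in edgeR without L_C_4. For Gas6 the log2 fold change was 2.11 in low glucose and 1.65 in high glucose, a difference of 0.46 ± 0.072 (SE, adjusted p = 0.0381). For Ccr1 the log2 fold change was 0.54 in low glucose and 1.19 in high glucose, a difference of -0.65 ± 0.10 (SE, adjusted p = 0.0381). Both calls were lost with replicate number as a block (adjusted p = 0.137) and when any 1 of 12 libraries was left out, which were L_O_2, L_O_3, L_O_4, L_C_2, L_C_3, the 4 H_O libraries, H_C_1, H_C_2 and H_C_4, with adjusted p-values of 0.064 to 0.146. Ccr1 encodes a receptor for Ccl3 and Ccl5. Ccr1 had 130.0, 120.0, 116 and 103 CPM in L_O, against 74.6, 75.2, 85.6 and 87.3 CPM in L_C, with no overlap. In high glucose 6 of the 20 GBP and IRG genes were lower, and the list's median log2 fold change was -0.72 against -1.65 in low glucose, and of the 16 MHC class II genes 5 were lower, with a median of -0.22 against -0.74. No gene of these 2 lists passed edgeR's test of the difference, whose smallest adjusted p was 0.0832 and 0.105. At an unadjusted p under 0.05 there were 14 of 20 and 9 of 16, DESeq2 called 1 and 3 and limma-voom 1 and 4. Cholesterol synthesis had 19 lower members in low glucose and 15 in high glucose, and MHC class I had 20 in each.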

How the data were processed

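RNA of 16 libraries was measured by sequencing of peritoneal macrophages, 4 in each of the groups L_O, L_C, H_O and H_C, which were taken from the labels. The authors deposited raw read counts, 1 whole number for each entry and library. The submitters' processing notes name HISAT2, DESeq2 and the build mm10. The counting tool, the annotation and whether counting used strand are not given in the sources used here. Of the 15871 entries 1594 carry no gene symbol.

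Counts were filtered by edgeR's default rule, which left 13527 entries, scaled with TMM factors and tested with edgeR 4.0.16 (quasi-likelihood, two-sided, R 4.3.3), fitting 1 mean per group over all 16 libraries with 12 residual degrees of freedom. P-values were adjusted by Benjamini-Hochberg over all tested entries, with a threshold of 0.05. The difference between glucose levels was tested as (L_O minus L_C) minus (H_O minus H_C). Alternatives were RLE size factors, no scaling, 2 other filters, DESeq2 1.42.0, limma-voom (limma 3.58.1, with sample quality weights), a replicate block, the 8 libraries alone and leaving out each library.

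Genes named with values were the 12 largest rises and falls (mean log2 CPM 3 or more, groups apart, symbol informative), up to 4 members of each list with the smallest adjusted p, a short set of lipid and osmotic genes, and the 8 genes that moved most without L_C_4. Other list members named with a fold change were chosen after their values were seen. Members and lists were chosen with earlier results of these data known. Lists share some genes. Some members counted in their lists are not reported here by name. Gene positions and promoter windows of 250 bases before the start come from RefSeq's GRCm38.p6, the build of mm10. The shares of 50-base stretches held in common and the exon overlaps come from GENCODE transcripts and annotation.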

Additional observations from a re-analysis of the deposited data

Results flagged for a closer look

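In 296 sets of 4 libraries (a named gene or library measure in L_O or in L_C), 30 had a library far from its group (10.1%), where chance gives about 1 in 20. L_C_4 was that library in 20 of them, among which are genes that were followed because they moved most without L_C_4, so its share was partly fixed by that choice.

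In L_C_4 the levels were high for Cpt1a (127 CPM), Egr1 (14.2 CPM), Gas6 (70.5 CPM), B2m (6800 CPM), Cd33 (186 CPM), Gpnmb (31497 CPM), Fn1 (620 CPM), Prg4 (47.4 CPM), Evi2b (156 CPM) and Spi1 (367 CPM). The mitochondrial genes mt-Nd5 (4262 CPM), mt-Nd2 (1952 CPM) and mt-Co1 (18103 CPM) were high there too. In the same library Npc2 (1302 CPM), Txn1 (453 CPM), Atf5 (38.9 CPM), Gadd45b (68.1 CPM), Trem2 (540 CPM), Acp5 (43.9 CPM) and the share of ribosomal protein counts (1.33%) were low.

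Of the L_O libraries, L_O_1 was high for Gbp4 (10.2 CPM) and Csf1r (616 CPM), L_O_3 for Slc6a6 (1846 CPM) and L_O_4 for Slc40a1 (39.1 CPM). L_O_2 was low for Abca1 (153 CPM) and mt-Nd5 (1292 CPM) and high for Gadd45b (33.9 CPM) and Itgax (400 CPM). Of the other L_C libraries, L_C_2 was high for Clic5 (68.0 CPM), and L_C_3 for Fos (13.1 CPM).

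The ox-LDL effect differed between low and high glucose in edgeR's test for Gas6, by 0.46 on the log2 scale, and for Ccr1, by -0.65 (adjusted p = 0.0381 each).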

How the results depend on the processing

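Of the 146 genes followed under the alternatives 139 had the same direction and side of the threshold under all 16. Some genes named above were not followed in this way, among them Marco, Cd3e and Dcn, whose calls were lost without L_C_4. Without L_C_4 mt-Nd2 turned to 0.18 (adjusted p = 0.0125), while leaving out any other single library kept it between -0.68 and -0.47, and the cause was not tested. The other 6 were Scarb1 (log2 fold change -0.11 with no scaling), Spi1 (-0.19 with no scaling), Lyz2 (0.12 with no scaling, adjusted p = 0.00773), Lpl (-0.29 without L_C_3), mt-Nd5 (-0.77 without L_C_1) and Tomm6 (-1.16 without L_C_2). With no scaling beyond library totals 2857 entries were higher. Leaving out 1 library gave 1342 to 1891 higher and 1627 to 1990 lower entries, and the 8 libraries fitted alone 1091 and 1522, with fewer residual degrees of freedom. Entries whose effect differed between glucose levels numbered 95 with DESeq2, 75 with limma-voom and 0 to 53 when 1 library was left out, and the cause was not tested.

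Correlations of same-numbered L_O and L_C deviations from their group means lay between -0.0430 and 0.0239, and those of other pairs between -0.0503 and 0.0849. Because the deviations are centred within each group of 4, these values cannot exclude a pairing by replicate number. With replicate number as a block 1595 entries were higher, 1805 lower, and 0 differed between glucose levels (Gas6 and Ccr1 at adjusted p = 0.137).

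Depth limits statements on entries near 0, such as Pax5 and Il1b, for which no fold is given. The dose unit of ox-LDL, the absence of mannitol from the L_O label and the origin of the replicates limit what the contrast compares.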
